A study of Mus musculus with 8 samples.

Results

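Aminoacyl-tRNA synthetases are the enzymes that load each amino acid onto its transfer RNA before translation, and the 10 genes described here encode cytosolic ones: Aars (alanine), Nars (asparagine), Sars (serine), Gars (glycine), Wars (tryptophan), Yars (tyrosine), Qars (glutamine), Dars (aspartate), Rars (arginine) and Kars (lysine). They were taken by name, and all 10 were found among the 12367 genes of the deposited table. All 10 also passed the filter on low values, which asked for 1 or more in 4 or more libraries. The libraries hold polyadenylated RNA of alveolar macrophages, the resident macrophages of the lung's air spaces, from untreated mice of 3 weeks. The control group (WT) carried floxed Tfam alleles without a Cre (Tfam-fl/fl). The deleted group (KO) carried the same floxed alleles and a Cre recombinase under the CD11c promoter (CD11c-Cre Tfam-fl/fl), which acts in cells that express CD11c and not in alveolar macrophages alone. Each group had 4 libraries, each a pool of sorted CD45+ F4/80+ CD11c+ cells from 3 to 5 mice, male, female or both. A group with the Cre and unfloxed Tfam is not among the samples, so an effect of the Cre and one of Tfam loss cannot be told apart.

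Tfam is the protein that packages mitochondrial DNA and drives its transcription. Impaired mitochondria, like amino acid shortage, are known to switch on the integrated stress response, in which phosphorylation of the initiation factor eIF2 slows most translation and raises that of the transcription factor ATF4. ATF4 binds composite elements shared with C/EBP proteins, and its known targets include amino acid transporters, enzymes of amino acid synthesis and many cytosolic synthetases. The products of Aars, Nars, Sars, Gars, Wars and Yars work outside the multi-synthetase complex. Qars, Dars, Rars and Kars are subunits of that complex, a large cytosolic assembly of synthetases held together by scaffold proteins. Gars and Kars each also supply the mitochondrial enzyme from the same gene.

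The element searched for was TGATGNAA on either strand, in RefSeq windows (build GRCm38.p6) from 250 bases before to 50 bases after each gene's start. Windows were matched for 7 of the 10 genes, all but Nars, Wars and Rars. Aars, Gars and Yars held it, 3 of 7 genes (42.9%), against 2.8% of the 9244 tested genes with a window and 3.97% of all 32851 windows. Aars held 2 matches, of which 1 is shown. The 30 bases around 1 match in each gene are shown because they mark where synthetases that rose carry these letters near their start. For genes without a window this is not known. Each runs 5′ to 3′ on the gene's strand, with the match in capitals.
Aars, chr8:111033840-111033869, + strand: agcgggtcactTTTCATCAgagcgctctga
Gars, chr6:55037960-55037989, + strand: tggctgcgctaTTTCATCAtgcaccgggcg
Yars, chr4:129189895-129189924, + strand: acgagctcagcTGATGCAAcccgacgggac
The Gars match begins 30 bases before the start, the Aars match shown at transcribed base 10 and the Yars match at transcribed base 4. In these Aars and Gars matches the element reads on the opposite strand. Sars, Qars, Dars and Kars have windows without these letters, which says nothing about sites elsewhere. Of the 7 other cytosolic synthetases with a window, Iars (isoleucine) and Tars (threonine) held the element. Eprs, Mars, Farsb, Farsa and Tarsl2 did not. Genes that rose, as given below, were thus found both with the element (such as Iars and Tars) and without it (such as Sars, Eprs, Mars and Farsb).
Iars, chr13:49682126-49682155, + strand: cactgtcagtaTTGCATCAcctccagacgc
Tars, chr15:11399655-11399684, - strand: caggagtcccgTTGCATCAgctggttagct
The Iars match begins at transcribed base 8 and the Tars match 15 bases before the start. None of 15 mitochondrial synthetase genes with a window held it. The starts are those of the RefSeq windows, and for Aars and Yars they lie downstream of the GENCODE gene starts given below. These matches are a description of sequence, and no binding was measured.

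Depth, read back from the spacing of the values, was 20243772 to 30263201 reads in the listed genes per library, and each of the 10 genes had at least 983 reads in every library. Values below are read numbers scaled to library size, with means given ± SD (n = 4 pools), and a log2 fold change is the difference of mean log2(value + 1), KO minus WT. Calls are adjusted p under 0.05 in limma, a linear model with moderated variances fitted to all 12163 genes that passed the filter and adjusted by Benjamini-Hochberg over all of them. Tfam checked the labels: its WT values ran from 26.1 to 35.2 and its KO values from 3.52 to 5.08 (by limma, log2 fold change -2.55 and adjusted p = 1.02e-06). A gene total does not separate the deleted exons from the rest. All 17 alveolar macrophage markers were measured, of which 4 were higher in KO, 7 lower and 6 not called. The background over the 12163 genes was 18.7% higher and 20.0% lower. Of the 4, Lyz2 (limma adjusted p = 0.0395) lost its call under quantile normalisation. It also lost it without any single library other than WT replicate 2. The 17 markers summed to 47989 to 49448 in WT and 51426 to 55153 in KO, a sum in which Chil3 and Lyz2 are the highest values. Siglecf, a lectin of these cells, fell from 501 ± 37.6 to 194 ± 20.9, while Cd68, a lysosomal protein of macrophages, rose by 0.83 on the log2 scale. The part of these markers in the results was not tested. In bulk RNA, more cells of a type and more RNA per cell cannot be told apart.

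Of the 10 synthetases, 8 were higher in KO, 0 were lower, and Dars and Kars missed the threshold. Over all tested genes 18.7% were called higher, 20.0% lower and 38.7% in either direction. At an unadjusted p under 0.05 the limma count of lower members was 0 too, and a fit with voom weights on the reads gave the same 8 and 0. The median log2 fold change of the 10 was 0.55, against -0.01 over all genes tested, of which 9.0% had a log2 fold change at or above that median. In each of the 8 that rose, every KO library lay above every WT library, an order found for 18.1% of tested genes.

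**Figure D1:**
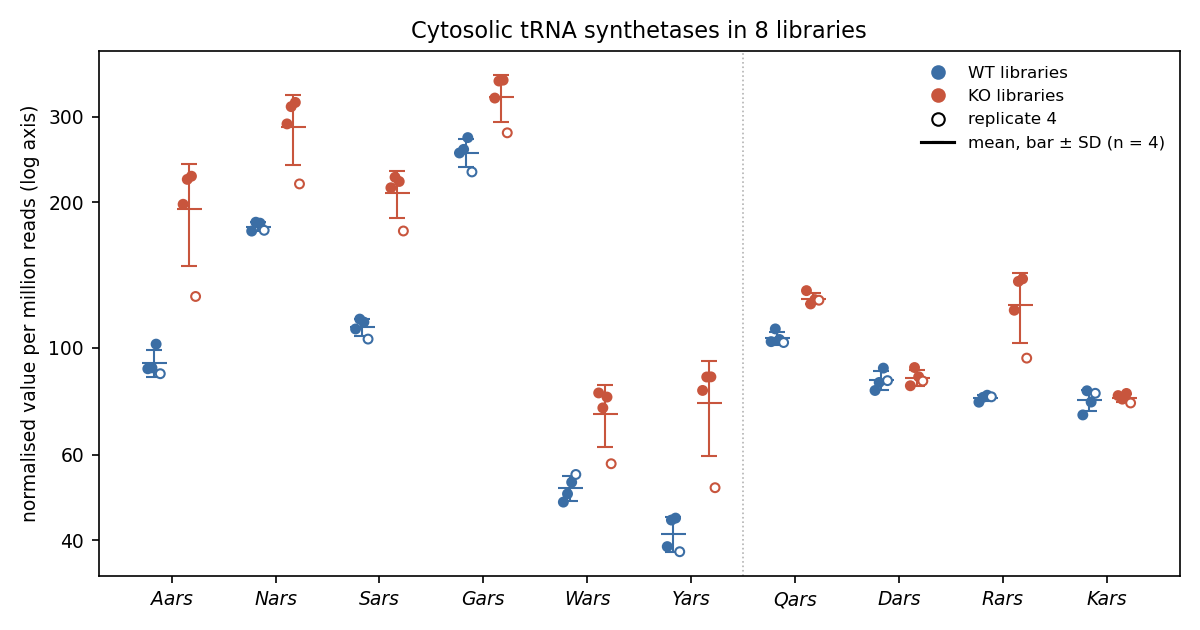
Normalised value (vertical log axis) of the 10 genes in each library, WT in blue and KO in red, with replicate 4 as open circles and mean ± SD over 4 libraries as bars. The 6 genes left of the dotted line and Qars and Rars to its right separate the groups, Dars and Kars do not, and KO replicate 4 is the lowest KO library in every gene that rose other than Qars.

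The 6 free enzymes all rose, by 0.38 to 1.02 on the log2 scale. Aars (chromosome 8, 111033144 to 111057664, GENCODE annotation of GRCm38) charges alanine and edits mischarged tRNA. It stood at 90.4, 90.8, 101.7 and 88.3 in WT replicates 1 to 4 and at 197.8, 222.7, 226.1 and 127.6 in KO replicates 1 to 4. The groups do not overlap, and KO replicate 4 lies far nearer to WT than the other KO pools. The increase, 1.02 on the log2 scale (SE 0.16, limma adjusted p = 8.58e-04), was the highest of the 10. About 14.3% of the Aars exon bases are shared with Exosc6 on the same strand, so that reads there could belong to either gene, and Exosc6 is not analysed here.

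Sars (chromosome 3, 108424865 to 108445209), the serine enzyme, which also charges the selenocysteine tRNA with serine, had 109.3, 114.6, 112.9 and 104.2 in WT. In KO it had 214.0, 225.0, 220.5 and 174.2, all above WT, with replicate 4 again the lowest. The log2 fold change was 0.91 (SE 0.08, limma adjusted p = 3.11e-05), the lowest p of the 10. Yars (chromosome 4, 129189760 to 129219607), the tyrosine enzyme, whose fragments have cytokine activity outside cells, had 38.8, 44.0, 44.4 and 37.9 in WT. In KO it had 81.6, 87.0, 87.0 and 51.4. Here 3 KO pools were close together and replicate 4 stood between them and WT. Its log2 fold change was 0.85 (SE 0.16, limma adjusted p = 0.0021). Yars shares 30 exon bases with C77080 on the opposite strand, a gene at 86.1 to 99.1 in WT and 224 to 274 in KO, and the strand setting of the counting is not given in the sources used here.

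Nars (on chromosome 18), which charges asparagine, was 174.1, 181.7, 180.8 and 174.8 in WT. In KO it was 290.03, 314.9, 321.2 and 218.0, higher by 0.67 in log2 terms (SE 0.11, limma adjusted p = 0.00109). The SD of Nars was 3.94 over the WT pools and 47.3 over the KO pools, of which replicate 4 was the lowest. Wars (chromosome 12, 108860030 to 108894174), the tryptophan enzyme, also known as an interferon-gamma-induced gene, was 47.9, 49.9, 52.7 and 54.7 in WT. It was 80.6, 75.1, 79.0 and 57.6 in KO. The lowest KO and highest WT pools of Wars, 57.6 and 54.7, both carry replicate number 4. Wars was higher by 0.49 in log2 terms (SE 0.10, limma adjusted p = 0.00432). Gars (chromosome 6, 55038007 to 55079500), the glycine enzyme of cytosol and mitochondria, was 252.6, 256.9, 271.7 and 230.8 in WT. In KO it was 328.0, 355.7, 357.2 and 278.0. It changed least among the free enzymes (0.38 on the log2 scale, SE 0.09, limma adjusted p = 0.00685), and its groups were separate by a small margin, 278.0 against 271.7.

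The 4 enzymes of the multi-synthetase complex divided. Rars (chromosome 11, 35808381 to 35834506), the arginine enzyme, was 77.1, 79.0, 79.7 and 79.1 in WT and 119.5, 137.1, 138.8 and 95.1 in KO. Its change of 0.62 (SE 0.11, limma adjusted p = 0.00152) lay within the range of the 6 free enzymes, and replicate 4 was again its lowest KO pool. Qars (chromosome 9, 108507706 to 108515941), the glutamine enzyme, was 102.9, 109.3, 104.0 and 102.5 in WT and 131.2, 123.1, 125.7 and 125.3 in KO. Its rise was small and even (0.27 on the log2 scale, SE 0.05, limma adjusted p = 0.00135), and its replicate 4 did not stand apart. Dars (chromosome 1, 128363707 to 128417368), the aspartate enzyme, was 81.6, 84.7, 90.7 and 85.5 in WT and 83.4, 91.0, 87.1 and 85.3 in KO. Kars (chromosome 8, 111993443 to 112011323), the lysine enzyme of both compartments, was 72.6, 81.4, 77.2 and 80.5 in WT and 79.6, 78.3, 80.4 and 76.9 in KO. For both, WT and KO pools were interleaved. The log2 fold change of Dars was 0.02 with a 95% interval of -0.10 to 0.14 (limma adjusted p = 0.818), and that of Kars 0.02 with -0.10 to 0.13 (limma adjusted p = 0.83). A processed pseudogene, Kars-ps1, is annotated and not analysed here.

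Per kilobase of the principal transcript (GENCODE), the WT levels ran from Gars at 106 ± 7.12 and Nars at 64.8 ± 1.43 down to Aars at 16.1 ± 1.05 and Yars at 14.2 ± 1.18. Between them Dars (39.4 ± 1.75), Kars (38.8 ± 1.99), Qars (37.4 ± 1.13) and Rars (37.3 ± 0.532) had overlapping WT ranges, as did Sars (30.9 ± 1.29) and Wars (28.1 ± 1.64). In KO, on the same per-kilobase scale, the means of Sars (58.4 ± 6.51) and Rars (58.1 ± 9.62) stood above that of Qars (45.1 ± 1.22), with the ranges of Rars and Qars overlapping, and Gars (139 ± 15.5) and Nars (104 ± 17.2) stayed at the top. Wars (40.1 ± 5.81), Dars (39.9 ± 1.48) and Kars (39.2 ± 0.779) had overlapping KO ranges. These per-kilobase levels depend on the transcript taken: with all annotated exons joined, Gars and Nars stayed first and second in WT, Aars and Yars last, and Rars and Sars moved ahead of Dars.

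KO replicate 4 was the library in which the synthetases rose least. Same-numbered pools varied together over all genes, so each KO pool was also set against the WT pool of its own number. Aars was 2.19, 2.45 and 2.22 times its WT partner in numbers 1 to 3 and 1.44 times in number 4. For Rars the ratios were 1.55, 1.74 and 1.74 against 1.20, and for Wars 1.68, 1.51 and 1.5 against 1.05. Qars did not share this pattern, with 1.27, 1.13 and 1.21 against 1.22, and Dars and Kars stayed between 0.955 and 1.10 in all 4 numbers. Tfam was at its lowest in KO replicate 4 (3.52), and the 13 mitochondrially encoded mRNAs summed to 1033 there, inside the 669 to 1181 of the other KO pools and far below the 10233 to 16183 of WT. On the log2 scale, KO replicate 4 had moved from the WT mean by a median of 36.9% of the distance of the other 3 KO pools over the 8 genes that rose, and by 87.1% over all 4708 called genes. The same measure was 59.8% over the 10 called genes of the integrated stress response, 58.9% over 15 called amino acid supply genes and 85.3% over 12 proliferation genes. Without both replicate 4 libraries, a fit added after the values were seen, the same 8 of 10 were called, with 41.0% of tested genes called in all, and Aars, Yars and Nars had log2 fold changes of 1.18, 0.99 and 0.78. What sets KO replicate 4 apart was not tested.

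**Figure D2:**
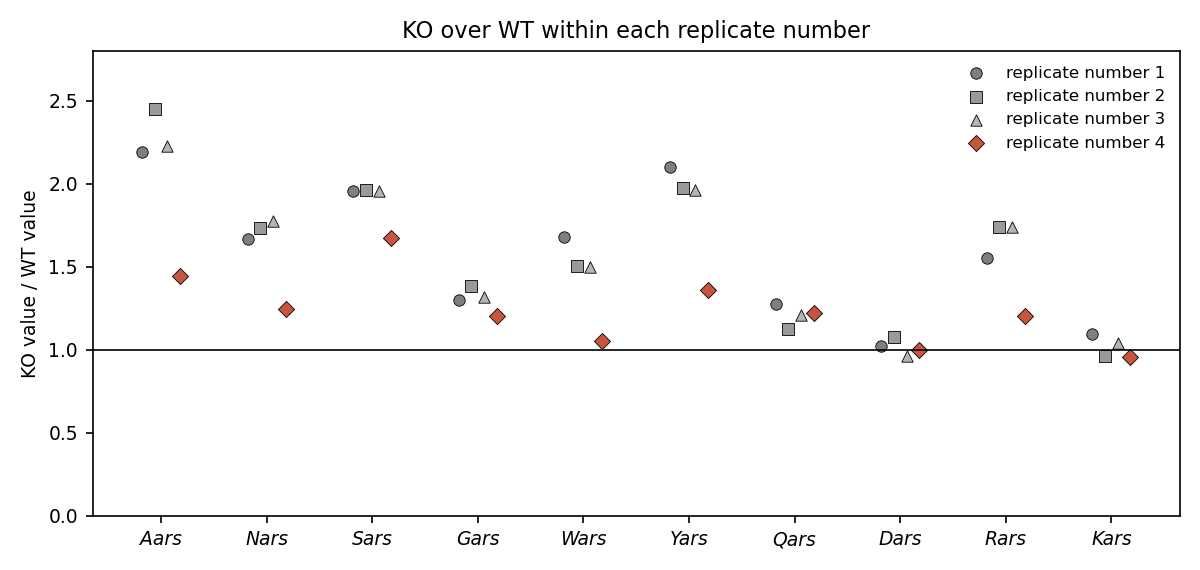
KO value divided by the WT value of the same replicate number (vertical axis, linear) for the 10 genes, numbers 1 to 3 in grey and number 4 as red diamonds. The ratio of number 4 is the lowest in Aars (1.44), Wars (1.05) and the other genes that rose except Qars, and Dars and Kars lie around 1 in every number.

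The other 11 cytosolic synthetase genes also included some that did not rise: 6 rose, 1 fell and 4 missed the threshold (background 18.7% higher and 20.0% lower), and the median change was 0.39 on the log2 scale. Cars, the cysteine enzyme, had the largest rise of the 11, from 29.2 ± 2.86 to 69.9 ± 11.8 (1.22 on the log2 scale, limma adjusted p = 6.57e-05). Eprs, the glutamate and proline enzyme, rose from 132 ± 9.4 to 272 ± 71.3, and Mars, the methionine enzyme, from 51.7 ± 3.75 to 93.5 ± 19.2. Both belong to the multi-synthetase complex, as does Iars (0.65 on the log2 scale), so that the complex held subunits that rose strongly beside Dars and Kars, which did not pass. Lars, its leucine enzyme, was 67.9 in WT replicate 4 and 67.8 in KO replicate 4, against 90.8 to 96.9 and 122.9 to 138.8 in the other pools. It did not pass (log2 fold change 0.37, limma adjusted p = 0.204), but did without KO replicate 4 (0.61, adjusted p = 0.00357) and with the replicate number as a block (adjusted p = 0.00838). Vars, the valine enzyme (0.19, limma adjusted p = 0.124), was called in those same fits too (adjusted p = 0.0382 and 0.0176). Hars, for histidine, had 59.4 ± 1.14 in WT and 54.2 ± 3.0 in KO (limma adjusted p = 0.0893).

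The phenylalanine enzyme is built from subunits of separate genes, and these differed. Farsb, the beta subunit, rose from 61.8 ± 2.87 to 112 ± 13.5 (0.85 on the log2 scale, limma adjusted p = 6.66e-05), while Farsa, the alpha subunit, was 37.2 ± 2.82 in WT and 33.5 ± 2.03 in KO (-0.14, limma adjusted p = 0.142). The ratio of Farsb to Farsa values was 1.40 to 1.77 in WT and 2.60 to 3.76 in KO, a ratio chosen after its values were seen and not tested. The threonine genes also moved apart: Tars rose by 0.39 (limma adjusted p = 0.00843), and the related Tarsl2 fell from 19.6 ± 1.86 to 11.9 ± 1.11 (-0.67, limma adjusted p = 3.89e-04). Of the 3 scaffold proteins of the multi-synthetase complex, Aimp1 rose from 38.8 ± 3.13 to 54.3 ± 2.29 and Eef1e1 from 22.2 ± 3.11 to 30.0 ± 1.88, while Aimp2 was 15.8 ± 1.92 in WT and 17.2 ± 2.16 in KO (limma adjusted p = 0.447).

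**Figure D3:**
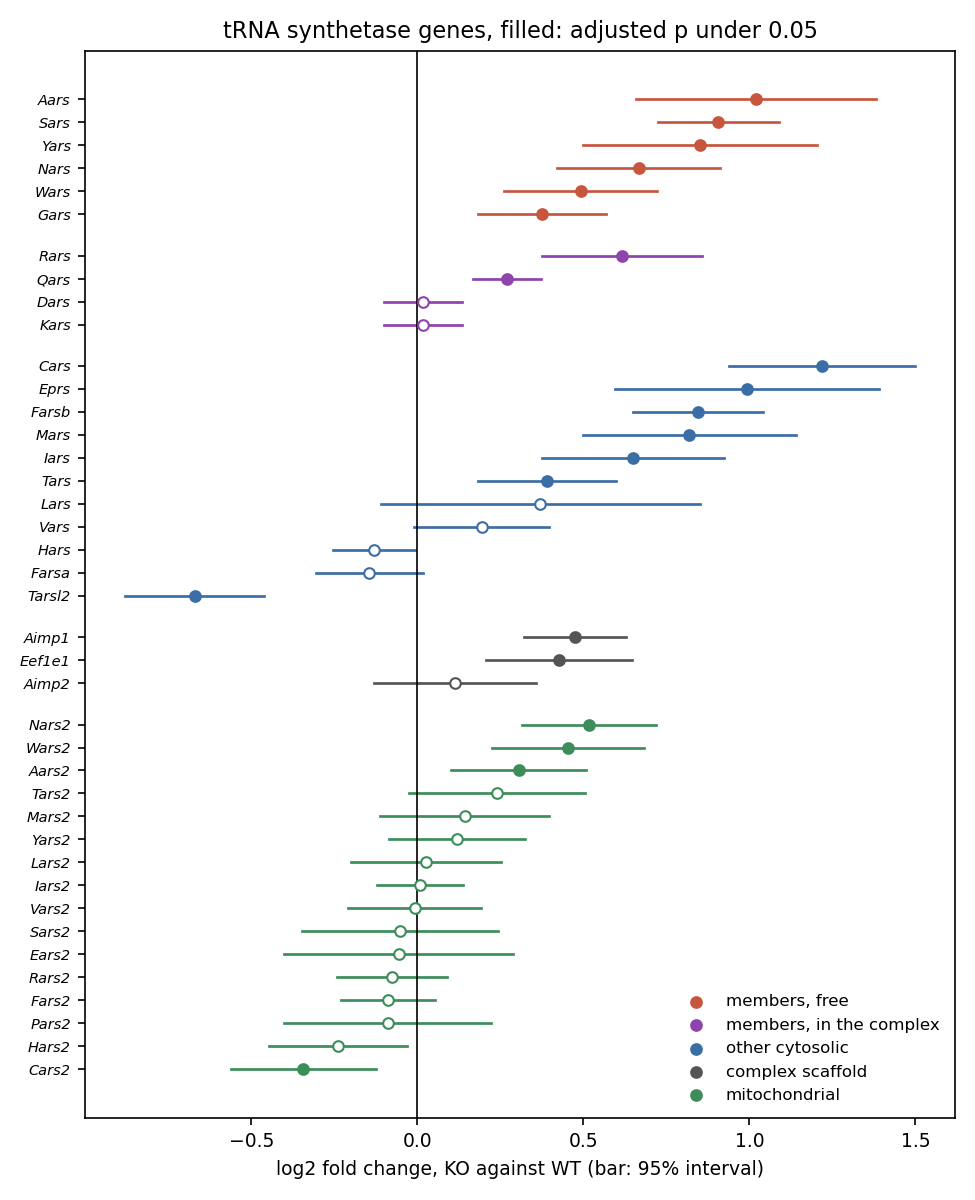
Log2 fold change, KO against WT (horizontal axis), with its 95% interval for the 10 genes (red free enzymes, purple complex subunits), 11 other cytosolic synthetases (blue), 3 scaffold genes (grey) and 16 mitochondrial synthetases (green). Filled points have an adjusted p under 0.05, and 8 of the 10, 6 of the 11 and 3 of the 16 are filled to the right of 0.

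Mitochondrial synthetases, which charge the tRNAs of the organelle itself, moved little: 3 of 17 rose, 2 fell and 12 did not pass, with log2 fold changes from -0.34 to 0.52 around a median of -0.01. Neither count exceeds the share over all tested genes, 18.7% higher and 20.0% lower. Nars2 rose from 8.96 ± 0.296 to 13.3 ± 1.42, Wars2 from 9.15 ± 1.16 to 12.9 ± 1.08 and Aars2 from 7.69 ± 0.665 to 9.72 ± 0.693, and Cars2 fell by 0.34 on the log2 scale. The calls of Aars2 and Cars2 were lost when single libraries were left out: Aars2 without KO replicate 1 or 4 or WT replicate 3 (adjusted p = 0.0578, 0.0567 and 0.0629), Cars2 without KO replicate 2 or 3 (0.0533 and 0.0572).

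The log2 ratio of cytosolic to mitochondrial gene in each library tests whether both changed alike. It was tested for 7 pairs, of which 6 are described. The ratio was higher in KO by 0.96 for Sars over Sars2, 0.73 for Yars over Yars2 and 0.69 for Rars over Rars2. In these 3 pairs every KO library exceeded every WT library (exact two-sided permutation p = 0.0286, the smallest that 4 against 4 allow), and adjustment over all 7 pairs tested gave 0.05, which is not under the threshold. For Aars over Aars2 the difference was 0.71 with 1 KO library inside the WT range (exact permutation p = 0.0571, adjusted 0.08). In each replicate number the KO ratio of this pair exceeded its WT partner (4 of 4). For Nars over Nars2 it was 0.15 (exact permutation p = 0.114, adjusted 0.133), likewise higher in 4 of 4 numbers, and for Wars over Wars2 0.04 (exact permutation p = 0.743, adjusted 0.743), higher in 2 of 4. Paired by number, 4 pairs cannot give a two-sided exact p below 0.125. Asparagine and tryptophan were the 2 amino acids whose mitochondrial genes rose most.

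**Figure D4:**
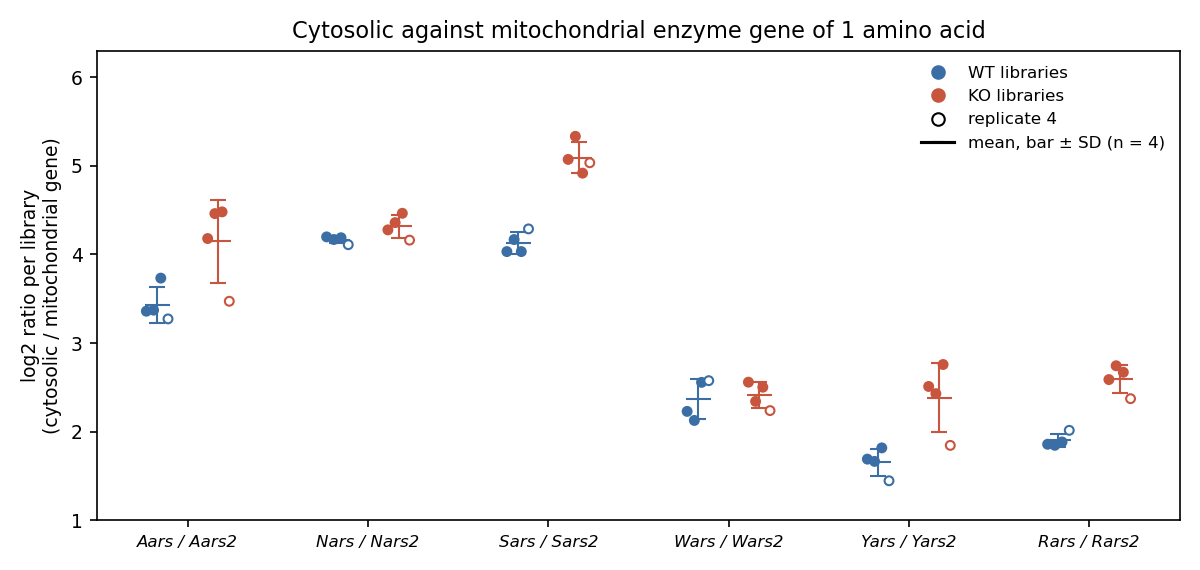
Log2 ratio of the cytosolic to the mitochondrial synthetase gene (vertical axis) in each WT (blue) and KO (red) library for 6 amino acids, replicate 4 as open circles, bars mean ± SD over 4 libraries. The groups are separate for Sars, Yars and Rars, KO replicate 4 falls inside the WT range for Aars, and WT and KO overlap for Nars and Wars.

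Regulators and other targets of the integrated stress response had 8 of 19 tested genes higher and 2 lower. Against a background of 18.7% higher and 20.0% lower, the lower count did not exceed its share. Atf4 mRNA rose from 142 ± 13.6 to 277 ± 49.5 (0.95 on the log2 scale, limma adjusted p = 2.76e-04), with 219 in KO replicate 4 and 253 to 324 in the other KO pools. Its target Trib3 rose from 2.33 ± 0.823 to 48.9 ± 25.5, with 17.1 in KO replicate 4, Ddit3 from 6.49 ± 0.766 to 24.5 ± 8.41, with 15.4 there, and Atf5 from 31.7 ± 6.08 to 138 ± 13, with 130 there. The 2 that fell, chosen after their values were seen, were the eIF2 kinases Eif2ak2 (49.4 ± 4.48 to 38.8 ± 4.54) and Eif2ak3 (56.8 ± 4.98 to 45.0 ± 3.42), and the call of Eif2ak2 was lost without WT replicate 1 (adjusted p = 0.0505). Messenger levels do not show kinase activity. In the list of amino acid supply 14 of 19 rose and 1 fell, against the same shares over all tested genes. Asns, which makes the asparagine that Nars charges, had 8.70 to 15.0 in WT and 63.4 to 142.9 in KO, and Got1, which makes aspartate, rose from 18.03 ± 1.75 to 46.2 ± 6.59, whereas the aspartate enzyme Dars did not pass. The 1 that fell, likewise named after its value was seen, was glutamine synthetase, Glul, from 1068 ± 113 to 684 ± 72.0, while Qars rose.

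The making and export of tRNA showed few changes: of 32 genes for RNA polymerase III and its factors, end processing and export, 3 rose, 2 fell and 27 did not pass. Neither count exceeds the share over all tested genes, 18.7% higher and 20.0% lower. The lower calls, Gtf3c2 and Polr3b, were both lost under median centring and under quantile normalisation. Both were also lost without KO replicate 1 or 4 or any single WT library, and the higher call of Rpp38 was lost in 5 such fits (KO replicates 2 and 3, WT replicates 1, 3 and 4). With the replicate number as a block 4 were lower. The exception in size was Xpot, the exportin that carries tRNA out of the nucleus, which rose from 78.6 ± 4.15 to 166 ± 34.1 (1.04 on the log2 scale, limma adjusted p = 2.95e-04) and stood at 117 in KO replicate 4 and 169 to 194 in the other KO pools. Polr3d, a subunit of RNA polymerase III, changed by 0.36 (limma adjusted p = 0.0129). Interferon-stimulated genes, a class to which Wars also belongs, had 0 of 18 higher by limma (1 at an unadjusted p under 0.05) and 4 lower, near the 20.0% called lower over all tested genes. Among them were Irf1, which fell from 42.6 ± 3.87 to 28.8 ± 3.12, Gbp7, from 81.6 ± 8.76 to 50.7 ± 2.97, and Gbp2, from 31.1 ± 4.68 to 21.8 ± 1.77. Proliferation genes fell in 12 of 12, where 20.0% were called lower over all tested genes. Mki67 went from 223 ± 44.0 to 67.4 ± 9.25 and Top2a from 158 ± 31.6 to 41.7 ± 9.16, while the synthetases rose. The part of the proliferation genes in the result was not tested.

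Markers of monocytes and interstitial macrophages moved with genotype: 6 of 8 measured rose (18.7% were called higher over all tested genes). The 8 summed to 145 to 345 in WT and 177 to 567 in KO, a sum in which Cd14 is the highest value. Cd14 was 191 ± 71.4 in WT and 172 ± 97.2 in KO (limma adjusted p = 0.677), so the overlap of the sums does not describe the 6 that rose. Mmp12, 1 of these 6, went from 9.71 ± 2.15 to 57.3 ± 14.8. C1qb, a complement gene of that list, was 47.0, 11.8, 20.3 and 25.6 in KO replicates 1 to 4. The 10 synthetases together summed to 1606, 1710, 1723 and 1289 in the same libraries. The part of these markers in the result was not tested. Markers of other cell types summed to less than those of alveolar macrophages. Dendritic cell markers summed to 16.3 to 22.2 in WT and 17.3 to 29.7 in KO. Of the 7 tested, 1 was called higher, Clec9a (limma adjusted p = 0.0117), and the other 6 were not called. Over all tested genes 18.7% were called higher. Epithelial, endothelial and stromal markers summed to 80.6 to 211 and 93.3 to 145. Of these 10, 1 was called lower, Epcam, from 19.5 ± 1.77 to 2.05 ± 0.816, and the other 9 were not called. The 211 was WT replicate 3, without which 4 of the 10 were called higher. Neutrophil and eosinophil markers, 3 of 8 measured, summed to 13.8 to 41.7 and 12.1 to 21.1. Of the 2 tested, S100a9 was lower (limma adjusted p = 0.0271), a call lost without several single libraries. The other, S100a8, was 11.8 ± 3.62 in WT and 11.6 ± 1.34 in KO (limma adjusted p = 0.962). Over all tested genes 20.0% were called lower. Of 10 lymphocyte markers 1, Ms4a1, was measured, at no more than 1.47.

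By Pearson correlation over the 8 libraries with the mean standardised log2 value of the 10 genes, the 5 other genes most alike were Cers2 (r = 0.989), a ceramide synthase, Ipo4 (0.989), a nuclear import receptor, Plpp5 (0.987), a lipid phosphatase, the synthetase Mars (0.987) and Cipc (0.987), a repressor of the circadian factor CLOCK. Among the 10 themselves, r with this mean ran from 0.414 for Kars and 0.419 for Dars, over 0.877 for Qars, to 0.958 or more for the other 7. Each of the 10 is part of that mean, so their r cannot be set beside that of the 5 other genes. These correlations are descriptive: all 8 points share the genotype split and the position of KO replicate 4.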

How the data were processed

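RNA-seq of 8 pools was analysed, grouped by the sample titles. The deposited signal values, 1 per gene and library, were made by the authors: per the submitters' processing notes, which list GRCm38, RSEM 1.3.1, cutadapt 1.7.1, CASAVA 1.8.2 and limma. For the aligner, annotation release and strand setting, the entry is: not given in the sources used here. Each value is a read number plus 0.5 on a scaled per-million scale, read from the values (100% whole at a tolerance of 0.01); 3 reads equal 0.1 to 0.152.

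Values were tested as log2(value + 1) with limma 3.58.1 in R 4.3.3 (mean-variance trend, two-sided), for genes with at least 1 in at least 4 libraries (204 rows left out). The steps were tested on simulated data. The pseudocount understates changes of low genes. Ratios of cytosolic to mitochondrial genes had exact permutation tests, adjusted over all pairs tested. A few items counted in these totals are not reported here. Replicates are separate pools of animals.

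Named genes are the 10, the other synthetases and scaffolds, up to 4 per further list by p, and the 5 most alike. Exosc6, C77080, Glul, Eif2ak2, Eif2ak3, Polr3b, Chil3, Lyz2 and Cd14 fall outside it, picked with their values in view. The members and lists were chosen with earlier results of these data known.

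Deviations from group means correlated at 0.286 to 0.431 between same-numbered WT and KO libraries and at -0.374 to 0.0917 between others. This pairing comes from these correlations alone; no label explains the numbering.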

Additional observations from a re-analysis of the deposited data

Results flagged for a closer look

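Yars in KO replicate 4 had a value of 51.4, against 81.6 to 87.0 in the other 3 KO libraries. Its gap to the nearest of them was 84.7% of the range of the group, above the 95% critical value for 4 samples. This was 1 of 82 groups of 4 values looked at, over 41 synthetase and scaffold genes, and chance alone flags about 1 in 20 groups.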

How the results depend on the processing

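The 8 higher and 0 lower members kept their calls under all 21 alternatives run: filters, pseudocounts, scalings, variance models, library weights, a threshold of 0.01, the replicate block, each library left out, and, chosen after seeing the data, voom weights, no further pseudocount and both replicate 4 libraries left out. Dars and Kars passed under none; their log2 fold changes turned to -0.0047 and -0.0163 without WT replicate 1, and that of Dars to -0.00512 without KO replicate 2. Over single libraries left out Dars reached 0.0459 and Kars 0.0382 at most. With the replicate number as a block, 8 members were higher, and calls were gained among the synthetases for Lars, Vars, Hars2 and Tars2. Of the other lists' counts, the lower tRNA transcription and export genes went from 2 to 4, and the rest stayed within 1.5 times. Without single libraries that count was 0 to 2. A threshold of 0.01 left 1513 higher and 1543 lower genes of 2279 and 2429, 1 of the 2 lower mitochondrial synthetases and 1 of the 2 lower stress response genes. Leaving out single libraries gave 1 to 3 lower mitochondrial synthetases and 1 to 2 lower stress response genes. With a pseudocount of 5, the ratio differences of Nars (0.27), Sars (0.91), Yars (0.70) and Rars (0.66) passed (exact permutation test, adjusted p = 0.04). The Nars difference was 0.15 with the main pseudocount of 1. The higher pseudocount understates more of the rise of the low Nars2 (8.96 in WT, 13.3 in KO), which widens that difference. The Wars difference ran from -0.0436 to 0.106 over single libraries left out, and turned to -0.00955 without WT replicate 1, -0.0436 without WT replicate 2 and -0.0114 without KO replicate 1. Paired by number, exact permutation tests of the ratios cannot reach 0.05 (smallest paired sign-flip permutation p = 0.125). With a library left out, only the sizes of the ratio differences were compared. The causes were not tested.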
